A study of Homo sapiens with 3 samples.

Results

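The genes described here are a set of 41 genes of mitosis, chosen by name. They comprise the cyclins and kinases that start mitosis, the spindle checkpoint, the anaphase machinery, the kinetochore, spindle motors and cytokinesis proteins, with TOP2A, MKI67 and FOXM1. A gene was measured by the probes whose transcript accession carries its symbol, and the probe with the highest mean log2 signal over the arrays was taken. This gave a probe for 40 of the 41 genes, out of 22435 named genes on the array. The accession of PLK1 was not matched. All 40 genes were well above background on each of the 3 arrays.

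A549 lung cancer cells, which are a long-established line from a human lung adenocarcinoma, were kept for 48 h with 0.1% DMSO (control cells), 60 μg/mL cordycepin or 100 μg/mL cordyceps. Cordycepin is 3′-deoxyadenosine, a nucleoside analog of adenosine, and the cordyceps condition is described by the labels but not by the study's methods. The labels give all 3 conditions the same medium, which also held nicotinamide, troglitazone and zinc sulfate. RNA of each condition was hybridized to 1 Agilent array (n = 1), so each value below is a difference between 2 arrays, replicate error could not be estimated, and no test between conditions was run.

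In mitosis, a cyclin-dependent kinase bound to a B-type cyclin drives the cell into division, kinetochores tie the chromosomes to spindle microtubules, and a checkpoint holds anaphase back until every chromosome is attached. The anaphase-promoting complex then marks securin and cyclin B for destruction, and the midzone and contractile ring separate the daughter cells. Many of these genes are transcribed late in the cell cycle, repressed by the DREAM complex in resting cells and activated by MuvB with MYBL2 and FOXM1. RNA of these genes in a culture reflects both how many cells are late in the cycle and how much RNA each such cell holds, and these cannot be told apart in bulk RNA.

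Promoters of the set are shown as background on its genes, and whether their motifs bear on the ratios was not tested. The cell cycle genes homology region, an element with the core TTTGAA or its variant TTTAAA, is bound by MuvB complexes, and the CCAAT box is bound by NF-Y. RefSeq promoter windows of 300 bases, from 250 before to 50 after the transcript start (GRCh38.p14), were held for 34 of the 41 genes, as 41 windows. TTTGAA on either strand was present in 68.3% of these windows, compared with 15.2% of all 35116 windows. The variant TTTAAA was present in 29.3% and in 12.2% of all windows, and the CCAAT box on either strand in 32 of the 41 windows of the set and in 34.6% of all windows. TTTGAA on the strand of the gene within the last 50 bases before the start was found in 34.1% of the windows of the set and in 1.20% of all windows. A further list of mitosis genes, described after the set itself, held TTTGAA in 35.5% of 124 windows, the variant TTTAAA in 8.87%, which is below its share of all windows, and the CCAAT box in 53.2%. None of the 3 motifs contains another, and a match is a description of letters, not of a bound site.

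The windows of the genes that form the entry kinase complex (CDK1, CCNB1, CCNB2, CCNA2), and of the 2 genes that were at least 2-fold higher with cordycepin (INCENP, ANLN), follow 5′ to 3′ on the strand of the gene. They were chosen after the values were seen. Capitals mark TTTGAA and TTTAAA cores and CCAAT boxes on either strand, so that a box on the opposite strand reads ATTGG. CDK1 has 2 windows in the table, of which 1 is shown.
CDK1, chr10:60778081-60778380, plus strand: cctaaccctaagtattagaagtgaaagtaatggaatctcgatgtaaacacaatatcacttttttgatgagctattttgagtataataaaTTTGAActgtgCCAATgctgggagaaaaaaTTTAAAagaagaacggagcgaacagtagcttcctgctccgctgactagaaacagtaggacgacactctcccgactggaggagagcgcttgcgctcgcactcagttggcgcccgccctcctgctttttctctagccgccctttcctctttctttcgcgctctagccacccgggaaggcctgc
CCNB1, chr5:69166900-69167199, plus strand: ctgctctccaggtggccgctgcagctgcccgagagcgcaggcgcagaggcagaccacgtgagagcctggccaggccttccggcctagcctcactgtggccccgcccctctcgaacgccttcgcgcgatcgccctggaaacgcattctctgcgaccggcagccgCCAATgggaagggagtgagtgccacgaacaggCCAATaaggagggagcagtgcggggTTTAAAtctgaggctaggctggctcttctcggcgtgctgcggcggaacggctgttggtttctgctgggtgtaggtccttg
CCNB2, chr15:59104896-59105195, plus strand: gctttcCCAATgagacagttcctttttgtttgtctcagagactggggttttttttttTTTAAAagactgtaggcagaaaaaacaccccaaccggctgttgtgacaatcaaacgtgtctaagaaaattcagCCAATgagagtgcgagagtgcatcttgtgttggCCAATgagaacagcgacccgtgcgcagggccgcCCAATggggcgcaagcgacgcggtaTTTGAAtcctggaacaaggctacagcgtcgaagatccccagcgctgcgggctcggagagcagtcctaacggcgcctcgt
CCNA2, chr4:121823834-121824133, minus strand: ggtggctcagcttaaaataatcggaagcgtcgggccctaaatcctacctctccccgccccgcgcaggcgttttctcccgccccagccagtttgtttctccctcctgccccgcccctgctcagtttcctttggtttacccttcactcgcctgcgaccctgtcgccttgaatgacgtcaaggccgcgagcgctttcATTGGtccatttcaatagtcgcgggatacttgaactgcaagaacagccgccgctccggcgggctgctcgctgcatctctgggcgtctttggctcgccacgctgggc
INCENP, chr11:62123761-62124060, plus strand: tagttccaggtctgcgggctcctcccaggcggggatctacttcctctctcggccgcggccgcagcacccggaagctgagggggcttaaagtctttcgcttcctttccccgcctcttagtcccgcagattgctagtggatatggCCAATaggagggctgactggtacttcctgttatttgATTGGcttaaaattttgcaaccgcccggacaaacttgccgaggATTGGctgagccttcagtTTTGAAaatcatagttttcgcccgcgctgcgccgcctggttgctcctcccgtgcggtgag
ANLN, chr7:36389612-36389911, plus strand: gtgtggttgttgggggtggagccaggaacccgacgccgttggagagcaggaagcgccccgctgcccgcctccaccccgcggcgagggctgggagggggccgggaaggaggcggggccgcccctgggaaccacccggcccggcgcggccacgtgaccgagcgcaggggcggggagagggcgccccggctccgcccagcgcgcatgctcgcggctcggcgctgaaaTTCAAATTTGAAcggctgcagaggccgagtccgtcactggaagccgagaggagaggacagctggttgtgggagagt

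In the CCNB2 window, TTTGAA began 29 bases before the start, with CCAAT boxes beginning 54, 87, 120 and 244 bases before it. CCNB1 held TTTAAA 30 bases before the start and CCAAT boxes at 55 and 87 bases. In the CDK1 window shown, TTTGAA began 161 bases before the start, the CCAAT box 150 bases and TTTAAA 131 bases before it. INCENP and ANLN both held TTTGAA close to the start, at 10 and 20 bases before it, and ANLN had no CCAAT in this window. In the CCNA2 window neither TTTGAA nor TTTAAA was found, and 1 CCAAT box lay on the opposite strand, beginning 56 bases before the start. Other forms of the element were not searched for, so the CCNA2 window is not shown to lack it.

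Values are given as the processed signal of each array (intensity, not scaled between arrays) and as log2 ratios between arrays after each array was divided by its 75th percentile, a signal of 260.1 for control, 224 for cordycepin and 260.2 for cordyceps. Signals are listed in the order control, cordycepin, cordyceps, and a pair of log2 ratios in the order cordycepin over control, cordyceps over control. The percentile was lowest on the cordycepin array, so scaling raised its ratios, and unscaled 8 of the 40 genes had a lower signal with cordycepin than in control cells. A gene was called changed at 2-fold or more. Both ratios to control share the same control array. Signals of different probes depend on the probe and were not compared between genes. A single probe's log2 ratio had a technical spread of 0.25 for cordycepin over control, 0.20 for cordyceps over control and 0.28 for cordycepin over cordyceps, estimated from pairs of probes of 3356 genes. The spread is a robust SD, and the plain SD was larger, at 0.35, 0.34 and 0.42. This spread holds no variation between cultures.

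The set was higher in cordycepin-treated cells and lower in cordyceps-treated cells, as compared to control cells. The median log2 ratio of the 40 genes was 0.56 (1.47-fold) with cordycepin, against -0.04 for all 15917 genes compared, and -1.07 (2.11-fold lower) with cordyceps, against -0.10 for 15602 genes. With cordycepin, 2 genes were at least 2-fold higher (5.95% of all genes) and 0 were at least 2-fold lower (3.57% of all genes). The 2 higher genes are 5% of the set, so this count is near the background. With cordyceps, 25 genes were at least 2-fold lower (3.15% of all genes) and 0 were at least 2-fold higher (4.19% of all genes). These shares of all genes also stand beside the counts by role and by place on the array given below. At 1.5-fold, 18 genes were higher with cordycepin (13.3% of all genes) and 39 were lower with cordyceps (12.5% of all genes). The 25 genes at least 2-fold lower with cordyceps became 19 with the 75th percentile of probes detected on all 3 arrays (2.38% of all genes). They became 18 with quantile normalization (2.59%) and 22 with normexp background correction (1.49%). With the array median in place of the 75th percentile, 7 genes instead of 25 were at least 2-fold lower with cordyceps, against 1.33% of all genes. Those 7 were CCNA2, MAD2L1, AURKB, BIRC5, SPC25, KIF20A and ANLN, so the cordyceps calls given below for every other gene of the set end with that scaling, and 0 calls are left among the mitotic kinases, anaphase control, spindle motors, and TOP2A, MKI67 and FOXM1.

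The direction was shared by nearly the whole set. With cordycepin 39 of the 40 log2 ratios were above 0 (45.1% of all genes) and 32 of them exceeded the technical spread, whereas with median scaling 32 were above 0 and 21 exceeded it. With cordyceps 39 were below 0 (59.6% of all genes) and 39 exceeded the spread, also with median scaling. The shares of all genes past the spread, and above or below 0 with median scaling, were not counted. With the 75th percentile, in 38 of the 40 genes the order was cordycepin, then control, then cordyceps from high to low. The exceptions were BIRC5, highest in control cells, and BUB3, lowest in control cells. The cordycepin array was the highest for 39 of the 40 genes (35.8% of 16125 genes), and the cordyceps array was the lowest for 39 (42.5%).

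**Figure D1:**
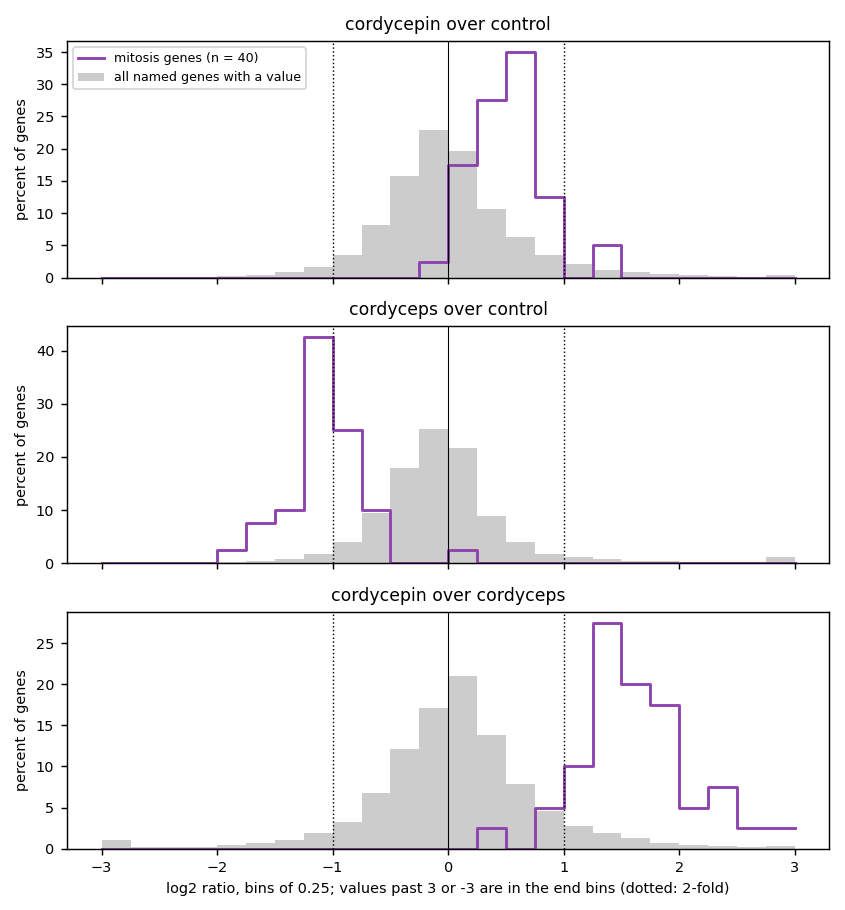
Share of genes (%) in bins of the log2 ratio for each of the 3 comparisons, for all genes compared (gray) and for the 40 mitosis genes (line), with the end bins holding all values beyond them. The mitosis genes center on 0.56 for cordycepin over control, -1.07 for cordyceps over control and 1.61 for cordycepin over cordyceps, while all genes center on -0.04, -0.10 and 0.04.

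The cyclin-CDK engine comprises CDK1, its cyclin partners and CDC25C, the phosphatase that activates CDK1. CDK1 had a signal of 2334 in control cells, 3714 with cordycepin and 979 with cordyceps, that is 1.85-fold higher and 2.38-fold lower than control. The latter call ended with median scaling (-0.98). The median over both CDK1 probes was -0.63, but the dimmer was not well above background with cordyceps and entered as a bound of 0. That median is therefore not a second measurement of the ratio. CCNA2, cyclin A2, had 373, 548.5 and 127, with log2 ratios of 0.77 and -1.55, the lowest cordyceps ratio of this group. Both genes were highest with cordycepin and lowest with cordyceps. CCNB1 and CCNB2, the B-type cyclins, were called lower with cordyceps and lay nearer to control with cordycepin. The CCNB1 signals were 5033, 4950 and 2321, with log2 ratios of 0.19 and -1.12, and the first of these was within the technical spread and turned to -0.07 with median scaling. CCNB2 gave 10264, 11379.5 and 5034, with log2 ratios of 0.36 and -1.03. CDC25C was 1.65-fold higher with cordycepin and 1.94-fold lower with cordyceps, short of 2-fold. Thus 4 of these 5 genes were called lower with cordyceps and 0 were called higher with cordycepin. The group's medians were 0.72 and -1.12.

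The mitotic kinases AURKA, which matures centrosomes and is activated by TPX2, and NEK2, which separates centrosomes, were both called lower with cordyceps. AURKA had signals of 1837, 2096 and 907 in control, cordycepin-treated and cordyceps-treated cells, with log2 ratios of 0.40 and -1.02. NEK2 had 725, 1051 and 314, with ratios of 0.75 and -1.21. Of the 5 genes of the spindle checkpoint, 3 were called lower with cordyceps. BUB1, a kinase that recruits checkpoint proteins to kinetochores, had signals of 1553, 2170 and 758 (log2 ratios 0.70 and -1.04). BUB1B, whose protein BUBR1 inhibits the anaphase-promoting complex, had 757, 1154 and 322 (0.82 and -1.23). MAD2L1, which encodes MAD2, the subunit that captures CDC20, had 492, 625 and 187 (0.56 and -1.40), the lowest cordyceps ratio of the checkpoint genes. TTK, the MPS1 kinase at the top of the checkpoint, did not reach 2-fold, with log2 ratios of 0.69 and -0.59. BUB3, which carries BUB1 and BUBR1 to the kinetochore, stood apart from the whole set.

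BUB3 had a signal of 3953 in control cells, 4762 with cordycepin and 4115 with cordyceps. Its log2 ratio with cordyceps was 0.06, the only one of the 40 that was above 0, and it ranged from -0.11 to 0.33 over the processing alternatives. A dimmer BUB3 probe gave 0.25 with cordycepin and -0.29 with cordyceps, so the probes of BUB3 did not share a direction with cordyceps. Both probes lay above the median of the set with cordyceps.

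Of the 4 genes of anaphase control, 3 were called lower with cordyceps, and 0 with median scaling. CDC20, the activator of the anaphase-promoting complex, had signals of 905, 1340 and 495, with log2 ratios of 0.78 and -0.87, and did not reach 2-fold. UBE2C, the ubiquitin-conjugating enzyme of that complex, had 5626, 8016 and 2699 (0.72 and -1.06). PTTG1, securin, had 26571, 36055 and 12057 (0.65 and -1.14). ESPL1, separase, the protease that cuts cohesin, had 1213, 1584 and 551 (0.60 and -1.14). All 4 were highest with cordycepin and lowest with cordyceps. PTTG1 has near-identical copies in the genome, and whether its probe tells them apart was not tested.

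The chromosomal passenger complex joins the kinase AURKB to INCENP, survivin (BIRC5) and borealin (CDCA8). Its genes diverged with cordycepin, where INCENP was called higher and BIRC5 was close to control. INCENP, the scaffold, had signals of 358, 746 and 159, which made it 2.41-fold higher with cordycepin and 2.25-fold lower with cordyceps. BIRC5 had 11788, 9652 and 4627, with log2 ratios of -0.07 and -1.35. The first was the only cordycepin ratio below 0, and it ranged from -0.34 to 0.01 over the alternatives. AURKB had 331, 376 and 110 (0.39 and -1.60), and was 3.02-fold lower with cordyceps. CDCA8 had 2773, 3075 and 1481 (0.36 and -0.91) and was not called. Of the 4 genes, 3 were called lower with cordyceps.

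**Figure D2:**
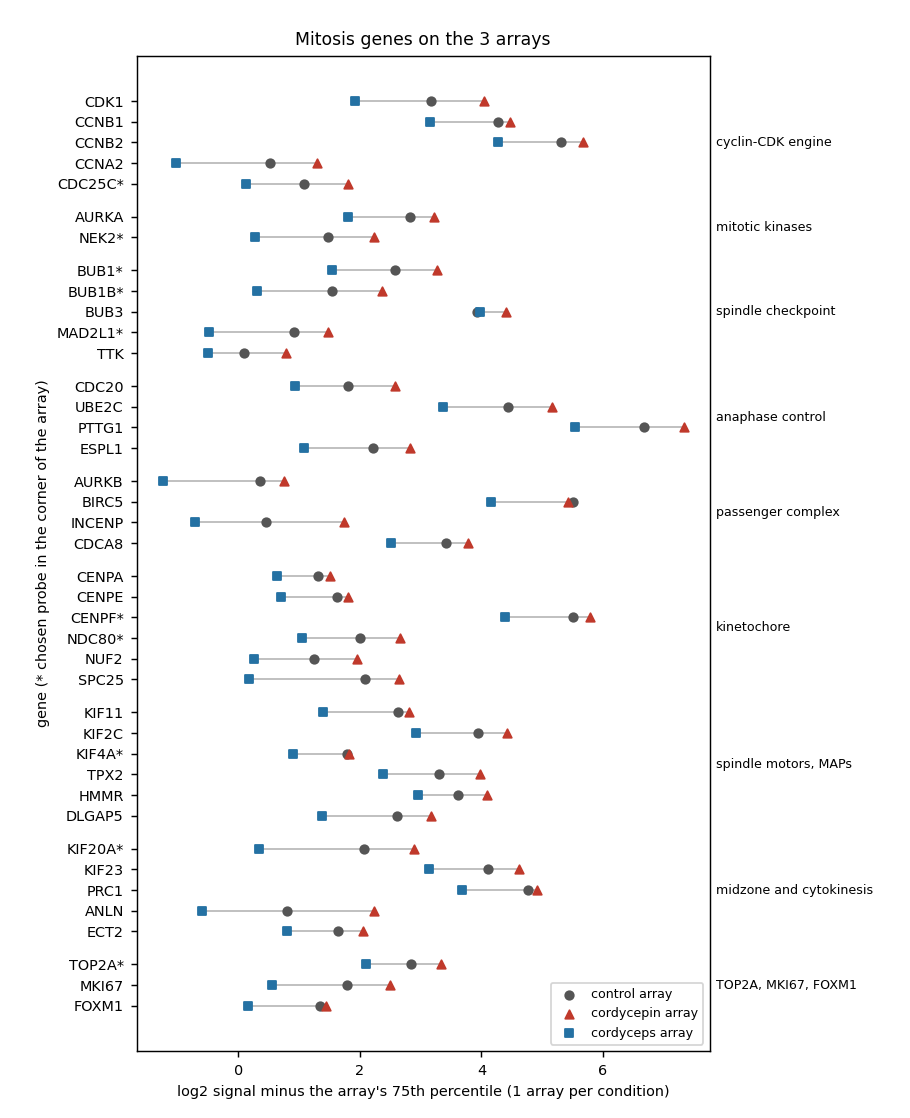
Log2 signal minus the array's 75th percentile for each of the 40 mitosis genes on the control (circles), cordycepin (triangles) and cordyceps (squares) arrays, grouped by role, with 1 point per array, no error bars, and asterisks on the 10 genes whose chosen probe lies in the corner described later. The median over the genes is 2.15 for control, 2.81 for cordycepin and 1.07 for cordyceps, and the cordyceps point is the lowest for 39 genes.

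Of the 6 kinetochore genes, 2 were called lower with cordyceps. SPC25, a subunit of the NDC80 complex that binds microtubules, had the lowest cordyceps ratio of all 40 genes. Its signals were 1102 in control cells, 1402 with cordycepin and 294 with cordyceps. Its log2 ratio with cordycepin was 0.56, and it was 3.75-fold lower with cordyceps. Its partners in that complex had ratios nearer 0 with cordyceps. NDC80 had 1038, 1420 and 539 (log2 ratios 0.67 and -0.95), and NUF2 was 1.64-fold higher and 1.99-fold lower, just outside the 2-fold limit. CENPF, a large protein of the outer kinetochore, was 2.18-fold lower. CENPA, the histone H3 variant that marks centromeres, had 646, 641 and 403, with log2 ratios of 0.20 and -0.68, of which the first was within the technical spread. CENPE, a kinesin that moves chromosomes to the spindle equator, gave 0.18 and -0.93.

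Among the 6 genes of spindle motors and microtubule-associated proteins, KIF11, KIF2C and DLGAP5 were called lower with cordyceps. KIF11, the motor EG5 that pushes spindle poles apart, had signals of 1612, 1573 and 687. It was 2.35-fold lower with cordyceps, and its log2 ratio with cordycepin was 0.18, within the technical spread. DLGAP5, which stabilizes kinetochore fibers, had 1584, 2020 and 676 (0.56 and -1.23). KIF2C, a kinesin that depolymerizes microtubules, gave 0.48 and -1.03, just past 2-fold. TPX2, which activates AURKA on the spindle, had 2556, 3544 and 1356, with log2 ratios of 0.69 and -0.91. HMMR, a spindle-binding hyaluronan receptor, gave 0.49 and -0.66, and KIF4A, a chromosome-bound kinesin, gave 0.02 and -0.89. KIF4A has a near-identical copy, and whether its probes tell them apart was not tested.

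Of the midzone and cytokinesis genes, ANLN and KIF20A stood farthest apart between the treatments. ANLN, anillin, the scaffold of the contractile ring, had a signal of 452 in control cells, 1055 with cordycepin and 172 with cordyceps. It was 2.71-fold higher with cordycepin, the highest ratio of the set, and 2.62-fold lower with cordyceps. KIF20A, a kinesin that places the passenger complex on the midzone, had 1088.5, 1661 and 329, that is 1.77-fold higher and 3.31-fold lower. PRC1, which bundles midzone microtubules, had signals of 7094, 6774 and 3339 and log2 ratios of 0.15 and -1.09, the first within the technical spread. ECT2, the exchange factor that activates RhoA at the division plane, had 806, 930 and 452 (0.42 and -0.84). KIF23, a motor of the centralspindlin complex, gave 0.50 and -0.98, just short of 2-fold. In this group 3 of 5 genes were called lower with cordyceps (3.15% of all genes) and 1 higher with cordycepin (5.95%). With median scaling 2 were called lower with cordyceps, KIF20A and ANLN.

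Of the genes outside these machines, MKI67 encodes the Ki-67 proliferation antigen that coats mitotic chromosomes. Its signals were 894, 1270 and 381, 1.65-fold higher with cordycepin and 2.35-fold lower with cordyceps. TOP2A, topoisomerase IIα, which untangles sister chromatids, had 1857, 2250 and 1115 (0.49 and -0.74). FOXM1, the forkhead factor that activates many of the genes above, had 663, 606 and 291. Its log2 ratio was 0.09 with cordycepin, within the technical spread, and -1.19 with cordyceps. FOXM1 RNA was therefore called lower with cordyceps and not called with cordycepin.

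**Figure D3:**
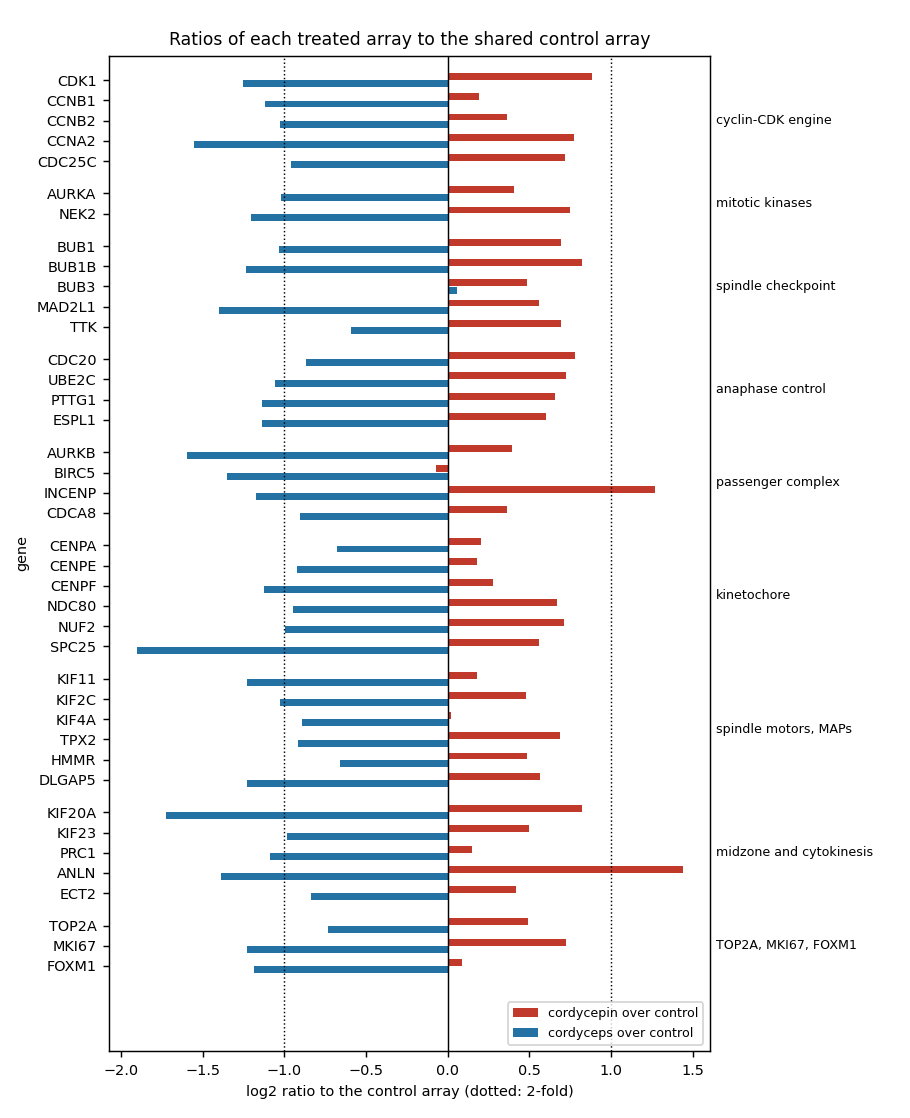
Log2 ratio of the cordycepin array (red) and of the cordyceps array (blue) to the shared control array for each of the 40 genes, in 9 groups by role, with 2-fold marked by dotted lines. Red bars run from -0.07 (BIRC5) to 1.44 (ANLN) and blue bars from -1.91 (SPC25) to 0.06 (BUB3).

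Set directly against each other, the cordycepin array was at least 2-fold above the cordyceps array for 37 of the 40 genes (7.75% of 15482 genes), and at least 2-fold below it for 0 (5.57%). All 40 ratios were above 0 (53.4% of all genes), as were 39 with median scaling. The doses differ, so these ratios stand for the conditions as used and do not compare the agents. ANLN had the largest ratio, 7.10-fold, followed by KIF20A with 5.85-fold, SPC25 with 5.53-fold, INCENP with 5.44-fold and CCNA2 with 5.00-fold. The genes under 2-fold were KIF4A with 1.88-fold, CENPA with 1.85-fold and BUB3 with 1.34-fold. The median was 1.61 on the log2 scale (3.04-fold), against 0.04 for all genes. With median scaling 21 of the 40 were at least 2-fold higher, against 2.96% of all genes.

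A corner of the cordyceps array carried a local disturbance, where 11.2% of spots had an outlying local background, compared with 3.16% in the rest of that array and 0% of corner spots on the control array. The chosen probes of 10 genes lay wholly in the corner: CDC25C, NEK2, BUB1, BUB1B, MAD2L1, CENPF, NDC80, KIF4A, KIF20A and TOP2A. Their median log2 ratio with cordyceps was -1.08, with 6 called lower. The 25 genes whose chosen probe had no spot in the corner had a median of -1.03, with 15 called lower. The median was thus nearly as low outside the corner as within it. For MKI67 a further dim probe in the corner had signals of 126, 158 and 421, and its log2 ratio with cordyceps of 1.73 opposed those of its other probes, -1.23 and -1.52.

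Repeated spots and second probes gave a measure of how well each array fixed these values. CDK1, CCNA2, BIRC5, INCENP and CENPE were each printed as 10 spots, of which 8 to 10 were used on an array. The SD between spots of a gene, in log2 units, was 0.059 to 0.095 on the control array, 0.059 to 0.069 on the cordycepin array and 0.037 to 0.135 on the cordyceps array. For CDK1 the scaled log2 signal of single spots ran from 3.001 to 3.32 in control cells, from 3.88 to 4.15 with cordycepin and from 1.68 to 2.16 with cordyceps, so the arrays did not overlap. For INCENP the spots ran from 0.30 to 0.62, from 1.64 to 1.82 and from -0.78 to -0.63, again with no overlap. For BIRC5 the control spots (5.39 to 5.59) and the cordycepin spots (5.33 to 5.52) overlapped, while the cordyceps spots (4.09 to 4.21) lay below both. For CENPE the control spots (1.53 to 1.74) and the cordycepin spots (1.73 to 1.95) also overlapped at their ends. Its cordyceps spots (0.61 to 0.78) lay below both.

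**Figure D4:**
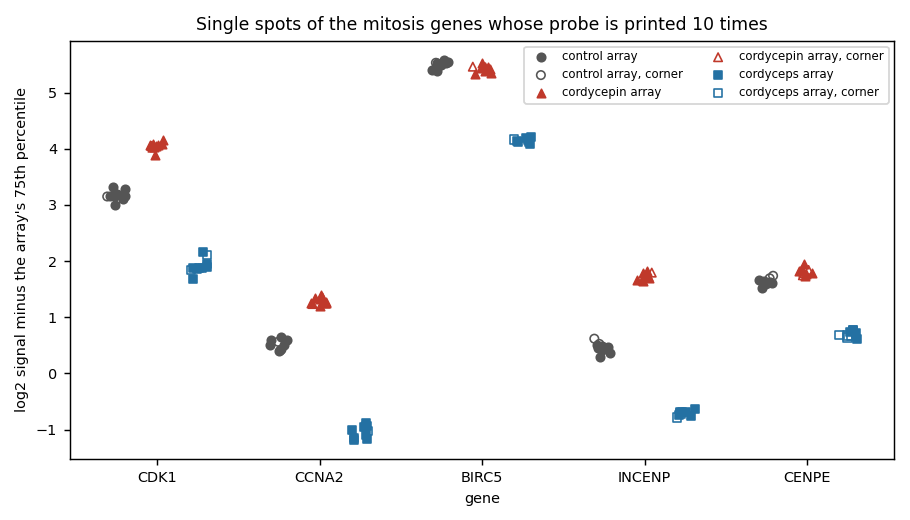
Scaled log2 signal of every used spot of the 5 genes printed as 10 spots, by array, where each point is 1 spot and open symbols are spots in the corner of the array. Spots of CDK1, CCNA2 and INCENP fall into 3 separate bands, while the BIRC5 spots of control (5.39 to 5.59) and cordycepin (5.33 to 5.52) overlap. The CENPE spots of control (1.53 to 1.74) and cordycepin (1.73 to 1.95) also overlap.

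Second probes outside the corner were read for 8 genes. Their log2 ratio differed from that of the brighter probe by at most 0.37 with cordycepin (CDK1, 0.52 against 0.88) and at most 0.34 with cordyceps (BUB3), CDK1 aside. Second probes of CCNB1, NEK2, CENPF, KIF23 and MKI67 gave -1.15, -1.40, -1.14, -1.06 and -1.52 with cordyceps, so KIF23 was past 2-fold by this probe and short of it by the brighter one.

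A further list of 106 mitosis genes, none of them in the set, was read in the same way, and is given by complex. With cordyceps its median was -0.68, with 25 genes at least 2-fold lower and 1 higher, and with cordycepin it was 0.37, with 0 called in either direction. Of all genes, 3.15% were called lower and 4.19% higher with cordyceps, and 3.57% lower and 5.95% higher with cordycepin. Only the 25 lower calls with cordyceps were above these shares, and the other counts were below them. Of 25 further spindle and cytokinesis genes, 13 were called lower with cordyceps (median -1.01), led by KIFC1 (-1.57), a minus-end motor, and GTSE1 (-1.55), followed by ASPM (-1.37), which focuses spindle poles, and SPAG5 (-1.33). Of 32 further kinetochore and checkpoint genes, 7 were called lower, among them ZWINT (-1.46), KNL1 (-1.32) and HJURP (-1.26), the chaperone of CENPA. MIS12, a kinetochore subunit, was the 1 gene called higher, at 2.15-fold, by a probe in the disturbed corner, where the probes of ZWINT and CKS2 also lay. Among 13 entry kinases and phosphatase regulators, 3 were called lower: PBK (-1.36), WEE1 (-1.24), the kinase that restrains CDK1, and CKS2 (-1.19).

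Complexes that also work in other phases of the cycle had medians nearer 0 than the set. This was not particular to them, as the 3 further lists above also had medians nearer 0. With cordycepin and cordyceps these were 0.42 and -0.73 (kinetochore and checkpoint), 0.49 and -0.65 (entry), and 0.40 and -1.01 (spindle and cytokinesis). The 17 subunits and regulators of the anaphase-promoting complex had medians of 0.00 with cordycepin and -0.16 with cordyceps, and 0 were called with either. The 11 cohesin genes had medians of 0.11 and -0.55, with 0 called. At the share of calls over all genes (3.15% to 5.95%), lists this short would hold about 1 call or fewer in each direction, so these counts are near the background. The 8 condensin genes had medians of 0.13 and -0.62. SMC2 and NCAPD3 were called lower with cordyceps, both at -1.15 (3.15% of all genes), which was not repeated with median scaling. Of 15 MuvB, DREAM and related regulators, only MYBL2 was called against control, lower with cordyceps at -1.15 (3.15% of all genes). The list's medians were -0.15 and -0.22. For cordycepin over cordyceps, 2 of the 15 were at least 2-fold higher, MYBL2 and TFDP2 (7.75% of all genes). In that comparison 1 was at least 2-fold lower, E2F5 (5.57%). In a list of 15 genes these counts are near the background.

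Of 14 CDK inhibitors and G1 cyclins with a value, out of 16, 2 were called higher with cordycepin (5.95% of all genes, near 1 in a list of this length), CDKN1A (p21), which inhibits cyclin-dependent kinases, and CCNE2. CDKN1A had signals of 142, 370.5 and 269, 3.03-fold higher with cordycepin and 1.90-fold higher with cordyceps. It was therefore above control on both arrays, while 38 of the 40 mitosis genes lay above control with cordycepin and below it with cordyceps. CCND3 (-1.59) and CDKN2C (-1.22) were called lower with cordyceps (3.15% of all genes). CDKN2A, whose locus is known to be deleted in A549 cells, was read at 4587, 1962 and 2881 and called lower with cordycepin (-1.01), and what its probe bound was not tested.

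DNA replication and G1/S genes, which act before mitosis, were read as a comparison list of 39 genes. Their medians were 0.33 with cordycepin and -0.99 with cordyceps, against 0.56 and -1.07 for the mitosis genes. With cordyceps 18 of 38 genes were called lower (3.15% of all genes). With cordycepin 1 was called higher (MCM10, 2.01-fold), against 5.95% of all genes. E2F1 was at least 5.86-fold lower and RRM2 at least 4.54-fold lower with cordyceps, as both were not well above background on that array. The difference between the lists was not tested, and the calls of this list were not repeated with median scaling.

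**Figure D5:**
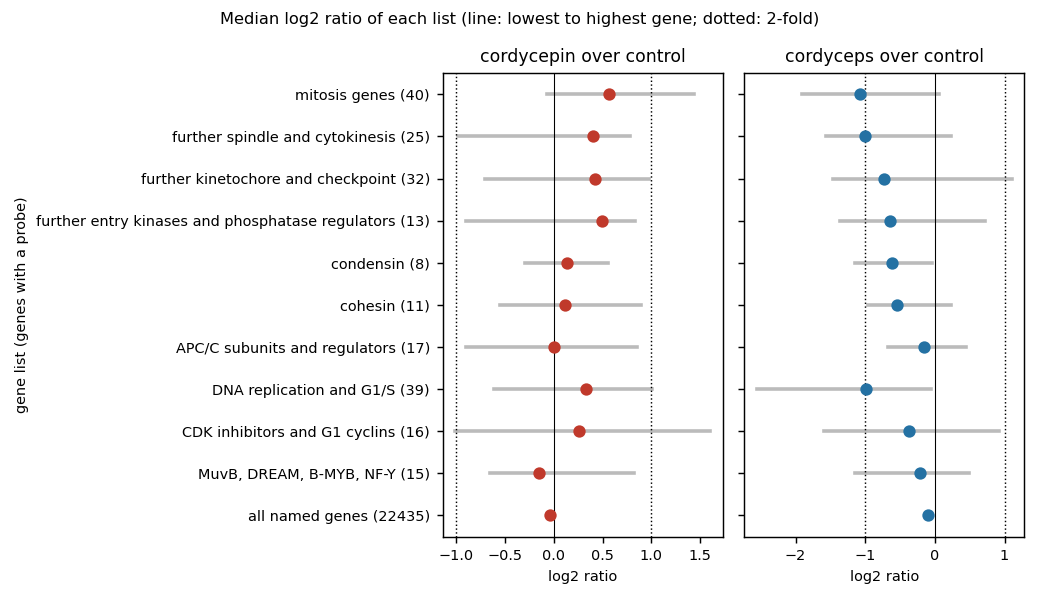
Median log2 ratio to control (dot) and the range from the lowest to the highest gene (line) for the mitosis genes, the further lists and, as a dot only, all named genes, with the number of genes that have a probe in brackets. The mitosis genes have medians of 0.56 with cordycepin and -1.07 with cordyceps, the APC/C genes 0.00 and -0.16, and the DNA replication genes 0.33 and -0.99.

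The labelled cell line was checked against its markers. All 10 markers of lung adenocarcinoma epithelium, among them KRT8, KRT18 and EPCAM, were well above background on every array. Of these, EPCAM was called lower with cordycepin (2.85-fold) and KRT19 was called lower with cordyceps (2.37-fold). Of markers of other cell types, 3 of 4 leukocyte markers were detected on each array (PTPRC, CD79A and CD14, without CD3E). So were 2, 2 and 0 of 3 endothelial markers and 1 of 4 fibroblast markers (COL1A1, by a probe in the disturbed corner). The lowest detected signal was 18.6 for control, 21.8 for cordycepin and 34.5 for cordyceps. Whether detection of these markers reflects other cells was not tested. Per the file headers the 3 arrays share 1 slide and 1 scan, so neither separates the conditions, and nothing in the labels says how many cultures stood behind each array.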

How the data were processed

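RNA of 3 conditions of A549 cells was measured on 1 array each. The authors deposited the scanner output of Agilent's Feature Extraction software (version 11.5.1.1 per the file headers, design on build hg19) as spot intensity, background-subtracted and not scaled between arrays, with a value table of the same intensities. The methods name Cy3 for vehicle RNA, Cy5 for cordycepin RNA and GeneSpring, whereas each deposited file is a one-colour Cy3 scan of 1 condition.

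Control spots and spots flagged as outliers were left out, log2 of the processed signal was reduced by each array's 75th percentile, and spots of a probe were averaged. A probe counted as detected with 50% or more of its spots flagged well above background (28494 probes for control, 27666 for cordycepin, 24505 for cordyceps), and 0 spots were saturated. Where 1 array of a pair detected a probe, the ratio is a bound against the higher of the dim value and the lowest detected signal. Accessions without versions matched the RefSeq table (GRCh38.p14) for 31104 of 58201 probes, and the table was used for names and promoter sequences only. No test between conditions was run with 1 array each, and precision is limited by the number of arrays.

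The 41 members and all lists were chosen with earlier results of these data known. The genes named are all members by role, with values on every array for the best known of each role and the 15 with the largest ratios among those at least 2-fold changed, and for other lists at most 5 genes past 2-fold. Alternatives covered scaling (array median, detected probes, quantile, none), normexp with an offset of 50 on the median spot signal, the corner left out, detection filters, outlier spots, the value table, the median over probes, and thresholds of 1.5-fold and 3-fold. They were applied to the set and to all genes, not to the other lists. The steps were tested on simulated data in which the planted changes all exceeded 2-fold, so calls near 2-fold were not covered. Python 3.11.15 with numpy 2.4.6 and pandas 2.3.3, and R 4.3.3 with limma 3.58.1, were used.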

Additional observations from a re-analysis of the deposited data

How the results depend on the processing

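With median scaling, the median log2 ratio of the mitosis genes was 0.30 with cordycepin, -0.80 with cordyceps and 1.07 for cordycepin over cordyceps, and 7 genes were at least 2-fold lower with cordyceps and 21 at least 2-fold higher with cordycepin than with cordyceps. This scaling moved the median of all genes from -0.04 to -0.31, from -0.10 to 0.12 and from 0.04 to -0.47. Relative to the median of all genes, the set lay between 0.48 and 0.63, between -1.08 and -0.92 and between 1.40 and 1.68 over the alternatives. With the corner left out, 33 genes could be read and 16 of them were at least 2-fold lower with cordyceps (2.2% of all genes). NEK2, CENPF and KIF4A were then read by a dimmer probe outside the corner. At a 1.5-fold threshold 18 genes were higher with cordycepin (13.3% of all genes) and 39 lower with cordyceps (12.5%). At 3-fold the counts were 0 (2.45% of all genes) and 3 (0.545%), and 21 were higher with cordycepin than with cordyceps (2.62%). No median of the mitosis genes changed sign under these alternatives, while 8 single genes of the set were below 0 with cordycepin under median scaling. No paired analysis was possible because there was 1 array per condition and the labels give no replicate numbers. The fixed 2-fold limit lies close to many cordyceps ratios, and differences between cultures could not be measured.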
